A study of Mus musculus with 16 samples.

Results

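The genes of cholesterol and fatty acid synthesis were examined in cultured mouse colon organoids, hollow balls of colon epithelium grown from crypts. A list of 33 gene symbols was matched to the probe sets of a single-colour Affymetrix array, and 29 had a named probe set, 1 each, out of 18850 named genes. The other 4 listed genes, Acat2, Tm7sf2, Srebf1 and Scd2, were not analysed here. The 16 arrays formed 4 groups of 4, WT, WT + TNFa, ATF2/7 mutant and ATF2/7 mutant + TNFa. The treated groups received recombinant mouse tumour necrosis factor alpha (TNFa), an inflammatory cytokine, at 50 ng/ml for 12 h. All organoids grew in ENR, a standard medium of EGF, Noggin and R-spondin. For the mutants, the genotype field reads ATF2 fl/fl / ATF7 KO, while the description calls ATF2 the knocked-out and ATF7 the floxed gene, so the alleles cannot be assigned. No label names a Cre recombinase or says that a floxed allele was recombined, nor gives strain, sex or age. Whether the 4 samples of a group are separate animals or cultures is not labelled, and p-values therefore cover only the spread among them, which may be technical. Atf2 had 1 probe set, which read 10.16 ± 0.14 in WT, 10.18 ± 0.02 in WT + TNFa, 10.15 ± 0.03 in mutant and 10.12 ± 0.01 in mutant + TNFa (mean log2 signal ± SD, n = 4). The genotypes did not separate at this probe set (−0.02 log2 without TNFa, adjusted p = 0.942, and −0.06 with it, adjusted p = 0.729). Where its probes lie relative to the altered part of the gene is not known here, so it neither checks the label nor shows which allele is altered, and Atf7 was not analysed here.

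Cholesterol is built from acetyl-CoA through mevalonate to squalene, which is then closed into a ring and trimmed. Fatty acids are built from the same acetyl-CoA through malonyl-CoA. Genes of both routes are classic targets of the SREBP transcription factors, which the escort protein SCAP carries out of the endoplasmic reticulum when sterols are low and which INSIG proteins hold back when sterols are high. SREBP activity is set mainly by this transport and cleavage, so the mRNA of a regulator does not report it directly. Fast-renewing gut epithelium makes membranes continuously and expresses both routes.

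The promoter of many SREBP targets carries a sterol regulatory element beside a CCAAT box, the site of the cofactor NF-Y. The 150 bases before the annotated start are shown for 6 members on which the results below turn or, for Hmgcs1, because its window alone held the sterol element searched. They are RefSeq sequences of build GRCm38.p6, 5′ to 3′ on the gene's strand, and capitals mark the sterol element TCACNCCAC and the CCAAT box in either orientation (ATTGG when reversed).
Hmgcs1 (chr13:119690201-119690350, plus strand): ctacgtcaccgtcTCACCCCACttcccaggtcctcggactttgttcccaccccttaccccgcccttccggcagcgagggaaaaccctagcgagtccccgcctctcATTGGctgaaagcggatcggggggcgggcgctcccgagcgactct
Mvd (chr8:122443423-122443572, minus strand): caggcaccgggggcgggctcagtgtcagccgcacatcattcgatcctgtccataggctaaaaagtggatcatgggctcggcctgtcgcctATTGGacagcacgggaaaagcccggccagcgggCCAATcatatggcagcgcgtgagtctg
Idi1 (chr13:8885456-8885605, plus strand): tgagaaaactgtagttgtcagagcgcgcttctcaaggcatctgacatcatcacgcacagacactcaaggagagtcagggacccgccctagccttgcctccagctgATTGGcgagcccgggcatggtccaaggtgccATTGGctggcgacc
Cyp51 (chr5:4104698-4104847, minus strand): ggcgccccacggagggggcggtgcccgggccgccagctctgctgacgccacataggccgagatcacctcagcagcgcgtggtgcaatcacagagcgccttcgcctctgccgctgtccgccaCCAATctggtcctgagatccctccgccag
Hsd17b7 (chr1:169969206-169969355, minus strand): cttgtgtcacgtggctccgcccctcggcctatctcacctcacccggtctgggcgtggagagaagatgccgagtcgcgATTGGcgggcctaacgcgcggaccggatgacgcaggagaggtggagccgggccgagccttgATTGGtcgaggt
Elovl6 (chr3:129532236-129532385, plus strand): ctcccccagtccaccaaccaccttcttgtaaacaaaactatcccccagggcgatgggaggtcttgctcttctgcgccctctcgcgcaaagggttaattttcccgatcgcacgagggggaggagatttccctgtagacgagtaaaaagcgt
Windows of 250 bases before the start were listed for 24 of the 29 measured members. Fdps, Fdft1, Sqle, Stard4 and Fads1 were without an entry. With both strands searched, 19 of the 24 (79.2%) held CCAAT in at least 1 window, against 39.2% of 15165 genes of the array with a window. The 5 members without it were Scap, Acaca, Acly, Elovl6 and Fads2, all of them outside the sterol enzymes. TCACNCCAC was found in Hmgcs1 alone (4.17% against 1.23%). The full cyclic AMP response element TGACGTCA, bound by ATF2 and ATF7 among others, was in 0 of 24 members and in 2.31% of the array's genes. Its core TGACGT, which the full element contains, was in Hmgcs1 and Insig1 (8.33% against 8.94%). GGGNNTTCC, an approximation of the NF-kB site, was in Hmgcs1 and Dhcr7 (8.33% against 6.16%), and the E-box CACGTG in Dhcr7, Hsd17b7, Insig1, Sc5d and Scap (20.8% against 8.08%). These are matches of letters and show no binding. Variant forms of the sites were not searched, so a window without a match may still hold such an element.

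Signals are log2 values, so a difference of 1 is a doubling, and levels of different genes are not compared because probe sets differ in brightness. A gene was tested when it exceeded its array's 40th percentile on at least 4 arrays. This held for 11766 genes and for 29 of the 29 measured members. Whether groups overlapped is given only to describe the arrays, because the share of all tested genes without overlap was not counted. Signals under 6.56 log2, the highest of these percentiles, lay in the dim range, which among the members only Me1 entered, on 4 arrays. The array medians ran from 7.02 to 7.11, and array WT + TNFa 2 correlated least with its own group (mean r = 0.977, against 0.986 to 0.995 for the rest). Without that array the called members of both TNFa comparisons were the same genes, while Cyp51 and Idi1 were added to the calls between untreated genotypes and Elovl6 replaced Cyp51 between treated ones. All 9 colon epithelial markers examined were above the dim range on all 16 arrays, from Chga (mean 7.57) to Krt8 (12.64). Of 4 adipocyte markers, Adipoq and Lep were dim on all 16 arrays, while Plin1 (mean 6.60) and Cidec (6.70) were above the dim range on 7 and 10 arrays. Of the immune markers, 0 of 4 measured had a mean above the dim range. Of 3 fibroblast markers Col1a1 (7.76 to 8.27) was above it on all 16 arrays, Col1a2 (mean 6.31) on 1 and Col3a1 (4.81) on 0. Of 4 liver markers Alb (7.16 to 8.43), Apob and Ttr were above it on all 16 and Serpina1a (mean 6.09) on 0. Ttr (mean 10.05, against 7.88 for Alb and 7.84 for Apob) makes up most of their summed signal, which therefore does not measure liver cells. The summed linear signal of the 4 liver markers was 1661 to 1786 in WT, 1484 to 1753 in WT + TNFa, 1491 to 1623 in mutant and 1486 to 1743 in mutant + TNFa, so all WT arrays lay above all mutant ones. The sum of the 9 epithelial markers was likewise 28660 to 29961 in WT and 27444 to 28652 in mutant, against 27783 to 30058 and 28095 to 29022 with TNFa. The sums of the adipocyte, immune and fibroblast markers overlapped between WT and mutant. The part of these shifts in the results was not tested. Fewer cells of a type and less RNA per cell cannot be told apart in such bulk samples.

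In WT organoids TNFa left most of the synthesis genes near their untreated level, as it did most tested genes. Of 29 members 0 rose and 2 fell, the sterol gene Dhcr7 by 1.19-fold and the desaturase gene Fads2 by 1.12-fold (6.90% called, where 10.8% of all tested genes were called, 5.03% as higher and 5.75% as lower). At an unadjusted p under 0.05 there were 8 members (27.6%), against 23.5% of all tested genes. The median difference of the members was 0.00 log2, and 0.01 over all tested genes. For 27 of 29 members the 95% interval lay within a 1.5-fold change in either direction, against 93.5% of all tested genes. The exceptions were Me1 and Scap.

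Dhcr7 encodes the reductase of the last step to cholesterol. Its signals were 10.14, 9.98, 10.13 and 10.18 in WT and 9.82, 9.99, 9.79 and 9.83 in WT + TNFa. The groups overlapped through WT 2 and WT + TNFa 2 only, and the difference was −0.26 log2 (SE 0.07, adjusted p = 0.0168). In mutant organoids Dhcr7 read 9.93, 9.87, 9.97 and 9.99 untreated and 9.88, 9.81, 9.77 and 9.997 with TNFa, which overlapped (−0.08, adjusted p = 0.662). The call in WT was lost without WT 4 or WT + TNFa 3 (adjusted p = 0.0558 to 0.0569) and in a fit of the WT arrays alone (0.0719).

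Fads2 encodes the desaturase that starts the route to long polyunsaturated fatty acids. It read 11.89, 11.89, 11.78 and 11.84 in WT, above all 4 values in WT + TNFa of 11.62, 11.75, 11.64 and 11.72. The difference was −0.17 log2 (SE 0.05, adjusted p = 0.0421). In the mutant groups the values were 11.84, 11.75, 11.74 and 11.78 untreated and 11.75, 11.71, 11.76 and 11.72 with TNFa (−0.05, adjusted p = 0.785). The fall in WT sat close to the threshold. In fits that left out 1 array it was called without WT 3, WT + TNFa 2, WT + TNFa 4, mutant 1 or mutant 3, and not without each of the other 11 (adjusted p = 0.0537 to 0.116).

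The earlier sterol enzymes, those before squalene, had small positive differences in WT that did not pass the test. All 7 measured members, Hmgcs1, Mvk, Pmvk, Mvd, Idi1, Fdps and Fdft1, lay between 0.05 and 0.19 log2 (52.9% of all tested genes were positive). The furthest was Fdps, the farnesyl pyrophosphate synthase, at 11.68 ± 0.09 in WT (mean ± SD, n = 4) and 11.87 ± 0.05 with TNFa, with no overlap (0.19 log2, SE 0.06, adjusted p = 0.0663). In fits that left out 1 array, Fdps was called without WT 2 and without mutant 1. Of the 9 enzymes from squalene onward, 5 were positive and 4 negative. Furthest up were Hsd17b7 (0.17 log2, adjusted p = 0.166), Cyp51 (0.17, adjusted p = 0.139) and Sc5d (0.12, adjusted p = 0.222), and furthest down was Dhcr7, given above. Of all 16 sterol enzymes 12 were positive in WT (75%) and 14 in mutant (87.5%). Sqle, the squalene epoxidase that limits the flow into sterols, was 10.17 ± 0.06 in WT and 10.17 ± 0.09 with TNFa (0.00 log2, 95% interval −0.13 to 0.14). Lss, which closes squalene epoxide into lanosterol, was 10.83 ± 0.05 and 10.71 ± 0.15 (−0.11, adjusted p = 0.485). Msmo1, Nsdhl and Ebp, which remove methyl groups from the ring or move its double bond, differed by 0.01, −0.01 and −0.09 log2.

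Among the regulators, Scap had the largest difference of any member in WT apart from Me1, and it was uneven between arrays. Its signals were 8.27, 8.22, 8.08 and 8.06 in WT and 7.57, 7.29, 7.98 and 8.13 in WT + TNFa. WT + TNFa 1 and 2 lay below every WT array, whereas 4 lay among them, and the difference of −0.42 log2 (SE 0.14, 95% interval −0.71 to −0.13) was not called (adjusted p = 0.0622). It was called without WT + TNFa 3 or 4 (adjusted p = 0.0101 to 0.0433) and ranged from −0.55 to −0.27 over the alternatives. In the mutants Scap read 8.17, 8.08, 7.95 and 8.24 untreated and 8.13, 8.16, 7.96 and 7.88 with TNFa, which overlapped (−0.08, adjusted p = 0.881). Insig1, itself an SREBP target, was 10.57 ± 0.15 in WT and 10.35 ± 0.09 with TNFa (−0.22 log2, adjusted p = 0.189), and Insig2 differed by −0.14. Srebf2, the main transcription factor of the sterol route, was 11.10 ± 0.08 and 11.13 ± 0.19 (0.03, 95% interval −0.14 to 0.21). Stard4, a cytosolic sterol carrier, differed by −0.10 (adjusted p = 0.527).

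Fatty acid synthesis itself showed no call in WT outside Fads2. Acly, which makes acetyl-CoA from citrate, was 12.40 ± 0.03 in WT and 12.37 ± 0.07 with TNFa. Acaca, which makes malonyl-CoA, was 8.40 ± 0.17 and 8.44 ± 0.13, and the fatty acid synthase gene Fasn was 11.08 ± 0.03 and 10.98 ± 0.08 (−0.10 log2, adjusted p = 0.334). Acss2, which uses acetate, and the elongase gene Elovl6 differed by −0.10 and −0.12, and Fads1 by −0.15, none of them called. Me1, the malic enzyme that supplies NADPH, read 7.16, 6.98, 6.63 and 6.84 in WT and 7.23, 7.07, 7.82 and 7.65 with TNFa. The groups overlapped, and the difference of 0.54 log2 (SE 0.20, 95% interval 0.11 to 0.97) was not called (adjusted p = 0.108). Of the fits that left out 1 array, only that without mutant 1 called it.

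**Figure D1:**
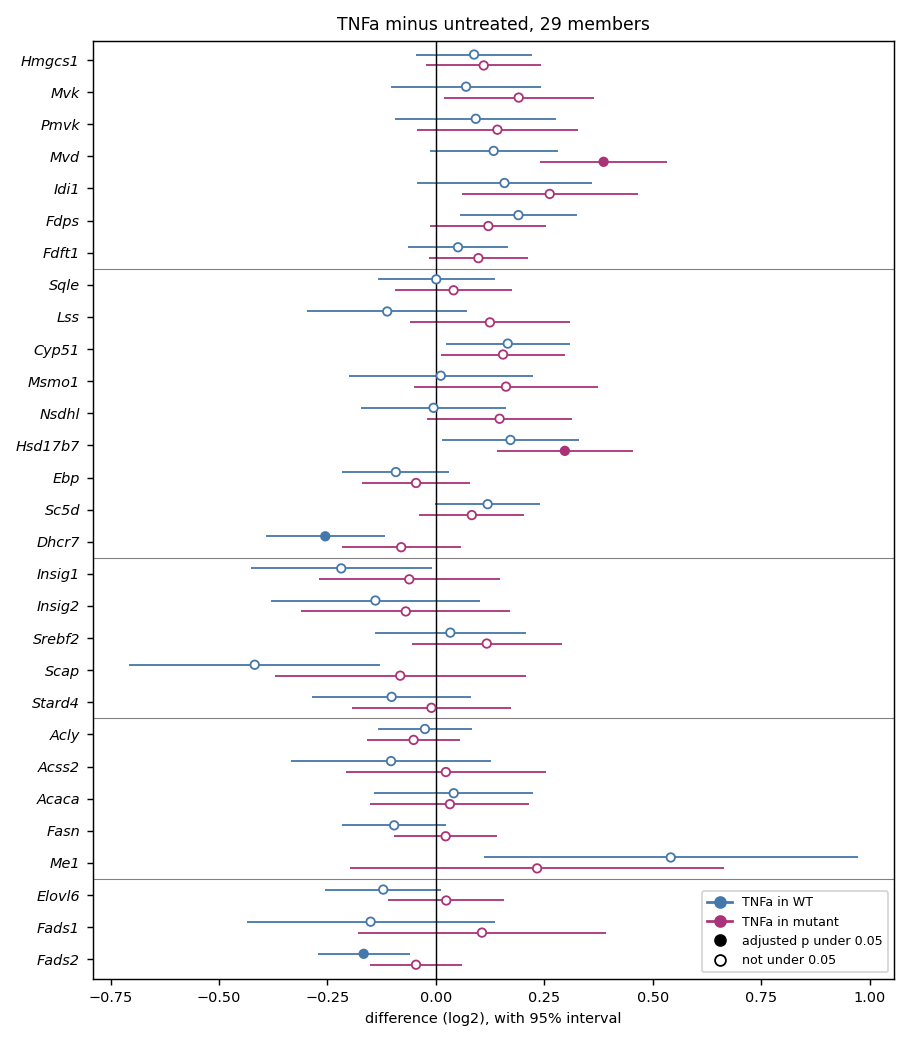
Difference in log2 signal between TNFa-treated and untreated organoids for the 29 members, in WT (blue) and in mutant (purple), with 95% intervals, ordered by role with lines between roles. Filled points passed adjusted p under 0.05: Dhcr7 and Fads2 in WT and Mvd and Hsd17b7 in mutant.

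In mutant organoids TNFa raised Mvd by 1.31-fold and Hsd17b7 by 1.23-fold, both of the sterol route, and lowered 0 members. The 2 calls are 6.90% of 29 members, where 5.98% of all tested genes were called and 3.51% were called as higher. At an unadjusted p under 0.05 there were 5 members (17.2%), against 15.7% of all tested genes. Of the 29 members 21 were positive (72.4%, against 52.8% of all tested genes) and the median difference was 0.10 log2, against 0.01. In the lists of related genes described below, 70.8% were positive for fatty acid and glycerolipid metabolism. The shares were 55.6% for sterol handling and 15.4% for fatty acid oxidation. For 28 of 29 members the 95% interval lay within 1.5-fold, against 95.2% of all tested genes, and Me1 was the exception.

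Mvd encodes the decarboxylase that completes the isoprenoid building block. Its signals were 10.42, 10.21, 10.30 and 10.47 in mutant and 10.68, 10.78, 10.77 and 10.72 in mutant + TNFa. All treated arrays lay above all untreated ones, and the difference was 0.39 log2 (SE 0.07, adjusted p = 0.00183). In WT the values were 10.65, 10.64, 10.56 and 10.56 untreated and 10.66, 10.67, 10.68 and 10.93 with TNFa, and WT + TNFa 4 stood above the rest. The groups did not overlap there either, but by a small margin (0.13 log2, adjusted p = 0.267). Without single arrays, and under the 11 other alternatives, the rise in mutant stayed between 0.34 and 0.43 log2 with adjusted p of at most 0.00844. Among these, averaging probe sets or testing each on its own repeated the main fit, as each member had 1 probe set.

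Hsd17b7 encodes the ketone reductase of the complex that strips methyl groups from the sterol ring. It read 9.53, 9.59, 9.63 and 9.76 in mutant, below all 4 values in mutant + TNFa of 9.92, 9.88, 10.10 and 9.80. The difference was 0.30 log2 (SE 0.07, adjusted p = 0.0220). In WT it read 9.70, 9.71, 9.59 and 9.65 untreated and 9.68, 9.86, 9.82 and 9.97 with TNFa, where WT + TNFa 1 lay within the untreated range (0.17, adjusted p = 0.166). The call in mutant was lost without mutant + TNFa 1 or 3 or mutant 1 or 2 (adjusted p = 0.0575 to 0.0921).

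The other sterol enzymes in mutant were mostly positive without passing the test. All 7 enzymes before squalene were positive, from 0.10 to 0.39 log2, and 7 of 9 after it. Idi1, the isomerase of the isoprenoid unit, differed by 0.26 log2 (adjusted p = 0.149, called without mutant 3), Mvk by 0.19 with no overlap (8.33 ± 0.09 and 8.52 ± 0.06, adjusted p = 0.250), and Cyp51 by 0.15 (adjusted p = 0.263). Hmgcs1 was 10.50 ± 0.08 and 10.61 ± 0.05 (0.11, adjusted p = 0.450). Sqle had the smallest of the positive differences, with 10.12 ± 0.10 untreated and 10.16 ± 0.06 treated (0.04, 95% interval −0.09 to 0.18). Regulators and fatty acid genes had no call. Srebf2 differed by 0.12 and Insig1 by −0.06, Fasn was 11.15 ± 0.09 and 11.17 ± 0.04, and Acly was 12.43 ± 0.06 and 12.38 ± 0.04. Acss2, Acaca and Elovl6 each differed by 0.02 or 0.03, and Fads1 by 0.11.

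**Figure D2:**
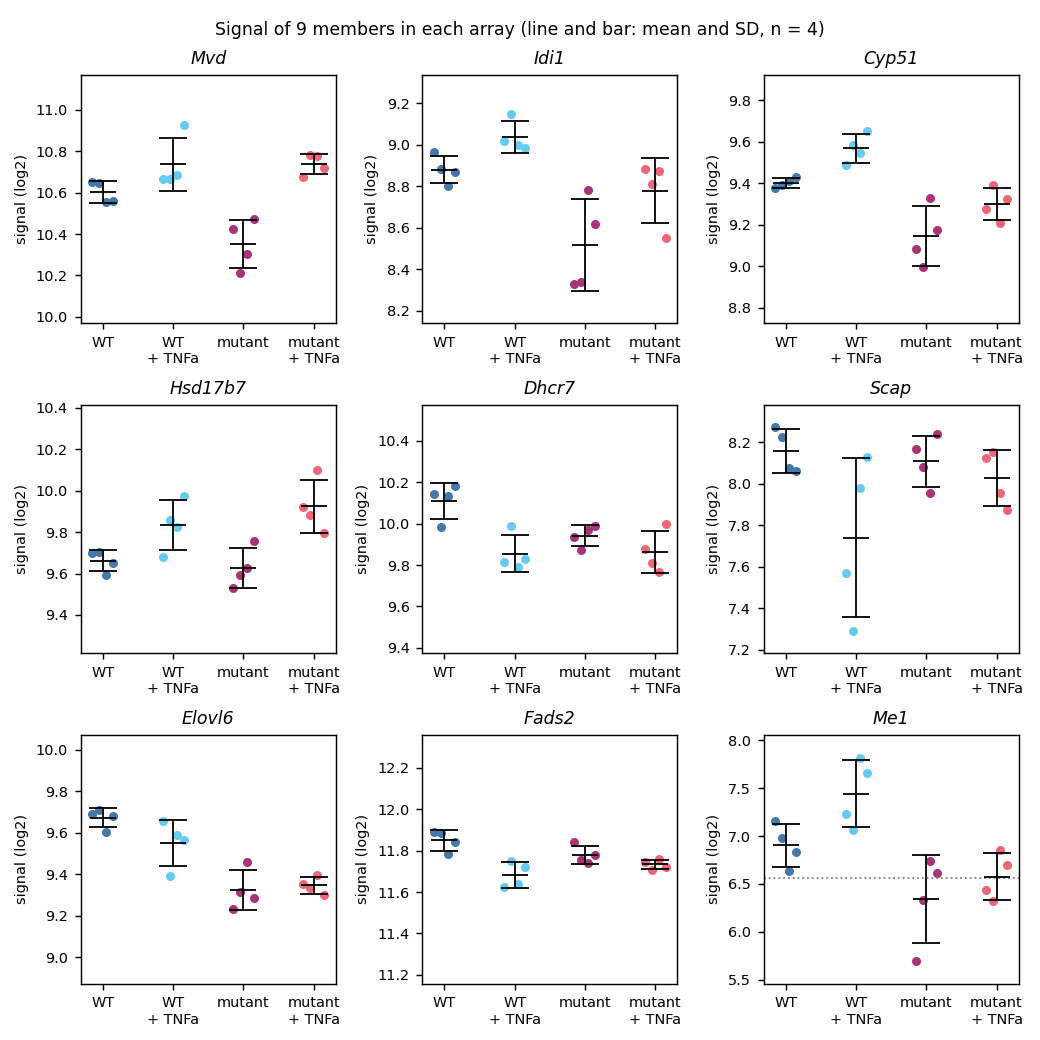
Log2 signal of 9 members in every array, with the mean and SD of each group of 4 and sample numbers running from left to right within a group. The Mvd panel shows the mutant arrays below 10.5 and the other groups above it, the Elovl6 panel shows untreated mutants below WT, and the dotted line in the Me1 panel is the upper limit of the dim range, 6.56 log2.

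The TNFa effects of the genotypes were then compared directly, as the effect in mutant minus that in WT. In limma 0 of 29 members passed, and 1 gene of 11766 did (0.0085%). At an unadjusted p under 0.05 there was 1 member, Mvd (0.25 log2, SE 0.10, 95% interval 0.05 to 0.46, adjusted p = 0.571), against 7.27% of all tested genes. The difference for Hsd17b7 was 0.13 (95% interval −0.10 to 0.35), for Dhcr7 0.18 (−0.02 to 0.37), for Fads2 0.12 (−0.03 to 0.27), for Scap 0.34 (−0.07 to 0.75) and for Me1 −0.31 (−0.92 to 0.30). These intervals include 0 and do not show equal effects. In all 23 of 29 members had a positive difference (79.3%, against 52.0% of all tested genes), with a median of 0.10 log2 against 0.01. Of the related genes in the lists described below, 72.2% were positive for sterol handling (median 0.09). The shares were 70.8% for fatty acid and glycerolipid metabolism (median 0.08) and 53.8% for fatty acid oxidation (median 0.00). A positive lean was thus not particular to the members. The untreated mutant arrays enter this comparison too. For 26 of 29 members the interval lay within 1.5-fold, and for 16 of the 16 sterol enzymes, against 91.5% of all tested genes.

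Without TNFa the mutants expressed less Elovl6 than WT, by 1.27-fold, and 0 other members were called. The 1 call is 3.45% of 29 members, where 2.48% of all tested genes were called and 1.48% were called as lower. At an unadjusted p under 0.05 there were 9 members (31.0%), against 13.3% of all tested genes. The mutants lay slightly below WT for 26 of the 29 members, and for 16 of 16 sterol enzymes. Above WT were thus 3 of 29 members (10.3%), against 47.7% of all tested genes. The lean was not confined to the members. In the lists of related genes described below, 22.2% of sterol handling genes lay above WT. The shares were 25.0% for fatty acid and glycerolipid metabolism and 30.8% for fatty acid oxidation. The same untreated mutant arrays enter the TNFa effect in mutant, so the lean of the members is not a separate observation from the positive differences there. The median difference was −0.08 log2 for the members, −0.08 for the sterol enzymes and −0.01 for all tested genes. For 28 of 29 members the interval lay within 1.5-fold, against 96.6% of all tested genes.

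Elovl6 encodes the elongase that turns palmitate into stearate. It read 9.69, 9.71, 9.61 and 9.68 in WT and 9.23, 9.31, 9.46 and 9.29 in mutant, with no overlap. The difference was −0.35 log2 (SE 0.06, 95% interval −0.48 to −0.22, adjusted p = 0.00398). With TNFa the values were 9.66, 9.39, 9.59 and 9.57 in WT and 9.35, 9.33, 9.40 and 9.30 in mutant. There WT + TNFa 2 fell within the mutant range and the difference of −0.20 was not called (adjusted p = 0.114), and it was called without that array. The untreated difference stayed between −0.39 and −0.32 under all 27 alternatives with adjusted p of at most 0.0179. As for Mvd, those on probe sets repeated the main fit.

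Idi1, Cyp51 and Mvd came next, each short of the threshold. Each also had no overlap, which was not counted over all tested genes. Idi1 read 8.96, 8.88, 8.80 and 8.87 in WT and 8.33, 8.34, 8.78 and 8.62 in mutant. The mutant arrays were spread, with 1 and 2 lowest and 3 close to WT, and the difference was −0.36 log2 (SE 0.10, adjusted p = 0.0565). It was called without WT + TNFa 2, mutant + TNFa 4 or mutant 3 (adjusted p = 0.0104 to 0.0434). Cyp51, the demethylase that acts on lanosterol, read 9.38, 9.39, 9.41 and 9.43 in WT and 9.08, 8.996, 9.33 and 9.18 in mutant (−0.26, adjusted p = 0.0560, called without WT + TNFa 2 or mutant 3). Mvd was 10.60 ± 0.05 in WT and 10.35 ± 0.12 in mutant (−0.25, adjusted p = 0.0725, called without WT + TNFa 4). The arrays mutant 1 and 2 were the low ones for Idi1 and Cyp51, and for Mvd 2 and 3 were.

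Me1 had the largest difference, −0.56 log2, but its groups overlapped and it was not called (adjusted p = 0.212). Lss was 10.83 ± 0.05 in WT and 10.61 ± 0.16 in mutant (−0.21 log2, adjusted p = 0.285), Dhcr7 was 10.11 ± 0.09 and 9.94 ± 0.05 (−0.17, adjusted p = 0.247), and Insig1 differed by −0.22 (adjusted p = 0.352). Srebf2 was 11.10 ± 0.08 and 11.08 ± 0.10 (−0.02, 95% interval −0.19 to 0.16). The 3 members above WT were Acly by 0.03, Acaca by 0.08 and Fasn by 0.07, the enzymes that lead from citrate to palmitate, with adjusted p from 0.677 to 0.864. Acss2, which starts from acetate, was lower by −0.23 (adjusted p = 0.365).

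**Figure D3:**
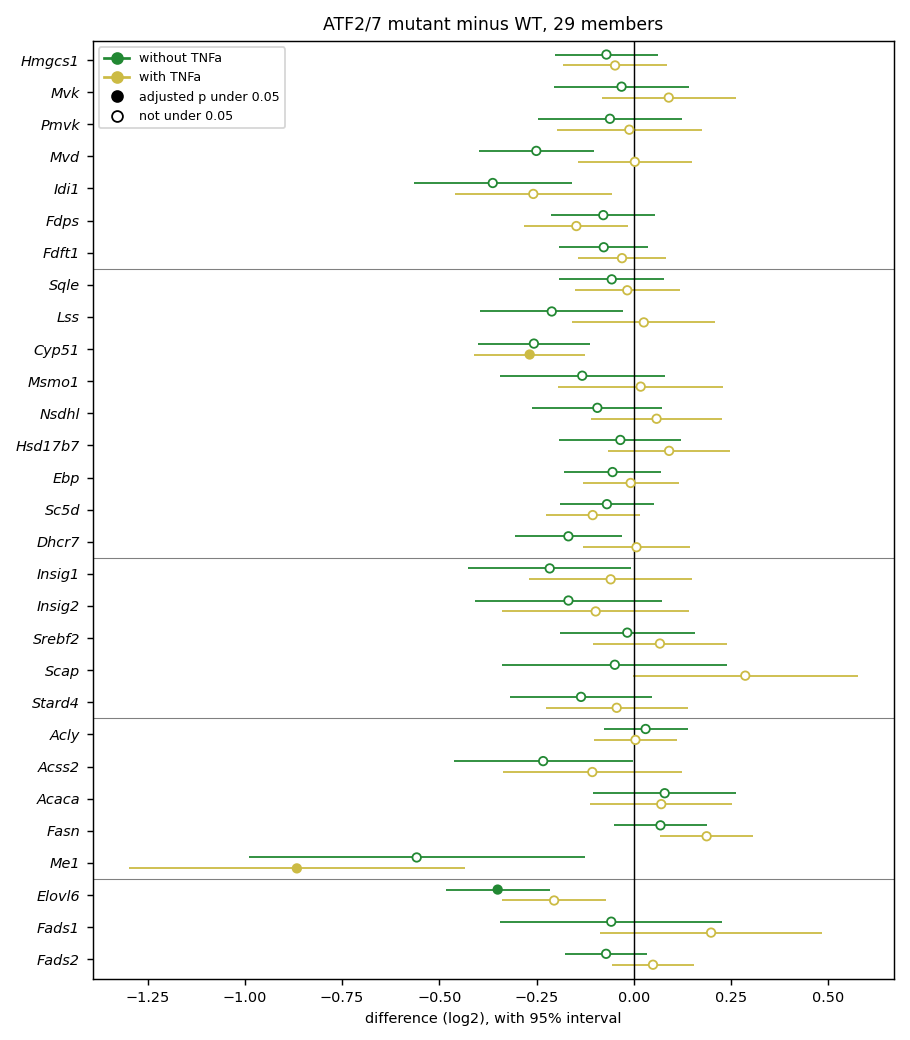
Difference in log2 signal between ATF2/7 mutant and WT organoids for the 29 members, without TNFa (green) and with it (yellow), with 95% intervals and the same order of roles. Filled points passed adjusted p under 0.05: Elovl6 without TNFa and Cyp51 and Me1 with it, and all 16 sterol enzymes lie left of 0 without TNFa.

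With TNFa 2 members were lower in mutant than in WT, Cyp51 by 1.20-fold and Me1 by 1.82-fold, and 0 were higher (6.90% called, against 2.69% of all tested genes and 1.13% called as lower). This comparison uses the same treated arrays as the TNFa effects. At an unadjusted p under 0.05 there were 6 members (20.7%), against 13.6% of all tested genes. The median difference over the members was −0.01 log2, against 0.00 over all tested genes, and 7 of 16 sterol enzymes were positive. For 28 of 29 members the interval lay within 1.5-fold, against 96.4% of all tested genes.

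Cyp51 read 9.49, 9.59, 9.55 and 9.65 in WT + TNFa and 9.28, 9.39, 9.21 and 9.33 in mutant + TNFa, with no overlap (−0.27 log2, SE 0.07, adjusted p = 0.0433). Its difference was of the same size without TNFa, and the TNFa effects differed by −0.01 (95% interval −0.21 to 0.19). In fits that left out 1 array the call held without WT + TNFa 1, mutant + TNFa 2 or mutant 1, 2 or 3, and was lost without each of the other 11 (adjusted p = 0.0554 to 0.137).

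Me1 read 6.43, 6.32, 6.86 and 6.70 in mutant + TNFa, below all 4 WT + TNFa arrays given above (−0.87 log2, SE 0.20, 95% interval −1.30 to −0.43, adjusted p = 0.0285). Mutant + TNFa 1 and 2 lay in the dim range, so the fold change is approximate. Untreated mutants read 5.70, 6.33, 6.74 and 6.61, of which 1 and 2 were dim, and overlapped WT (−0.56, adjusted p = 0.212). The call with TNFa was lost without WT + TNFa 3 or 4 or mutant + TNFa 1, 2 or 4 (adjusted p = 0.0574 to 0.101), and the difference ran from −1.03 to −0.74 over the alternatives.

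Idi1 with TNFa read 9.02, 9.15, 8.998 and 8.98 in WT and 8.89, 8.81, 8.87 and 8.55 in mutant, again with no overlap (−0.26 log2, adjusted p = 0.214). Fdps was also lower with no overlap, at 11.87 ± 0.05 and 11.72 ± 0.06 (−0.15, adjusted p = 0.307). Fasn was higher with no overlap, at 10.98 ± 0.08 and 11.17 ± 0.04 (0.19, SE 0.06, adjusted p = 0.102). Mvd, whose untreated difference was −0.25, was 10.74 ± 0.13 and 10.74 ± 0.05 (0.00, 95% interval −0.14 to 0.15). Srebf2 differed by 0.07 and Scap by 0.29 (adjusted p = 0.373).

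Averaging the 16 sterol enzymes within each array showed where the untreated mutants stood. As deviations from each gene's mean over 16 arrays, the averages were 0.03, 0.03, −0.02 and 0.02 log2 in WT and 0.01, 0.04, 0.05 and 0.16 in WT + TNFa. They were −0.17, −0.20, −0.03 and −0.03 in mutant and 0.02, 0.05, 0.04 and 0.00 in mutant + TNFa. Mutant 1 and 2 were the lowest arrays, with 12 and 15 of 16 enzymes below their group mean, while mutant 3 and 4 had 14 of 16 above it. WT + TNFa 4 was the highest array, with 14 of 16 above its group mean. When each untreated array was left out in turn, 15 or 16 sterol enzymes stayed lower in untreated mutants, with 15 without mutant 1 or mutant 4. The median ranged from −0.12 to −0.07 log2. Leaving out a TNFa-treated array cannot change this difference and is no check. Each single omission keeps mutant 1 or mutant 2, so the joint weight of these arrays was not tested. The 8 fatty acid enzymes averaged −0.19, −0.10, 0.03 and −0.04 in mutant and −0.02 to 0.13 in WT, which overlapped. No test was made on these averages.

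**Figure D4:**
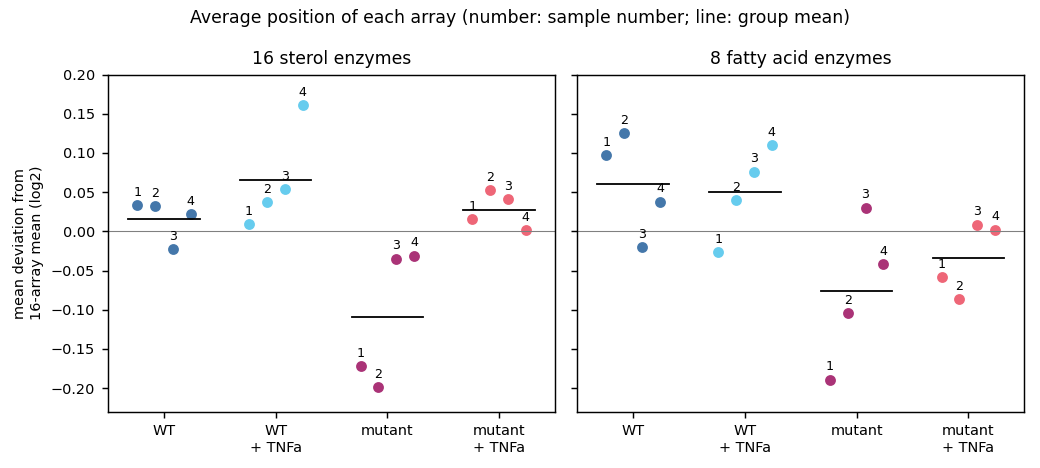
Mean deviation of each array from the 16-array mean (log2), averaged over 16 sterol enzymes (left) and 8 fatty acid enzymes (right), with the sample number beside each point and the group mean as a line. For the sterol enzymes, mutant 1 and 2 lie at −0.17 and −0.20 and every other array between −0.03 and 0.16.

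Other genes of the same metabolism were looked at through lists written with earlier results known. Their shares of called genes, set beside those of all tested genes, therefore describe the lists and are no test of an excess. Of 18 tested genes of sterol handling, 3 fell and 0 rose with TNFa in WT, and 1 rose and 1 fell in mutant. Over all tested genes 5.03% were called as higher and 5.75% as lower in WT, and 3.51% and 2.47% in mutant. Erlin1, which helps hold SREBP back in the endoplasmic reticulum, fell by 1.30-fold in WT (−0.38 log2, SE 0.06, adjusted p = 2.8e-04) and by 1.22-fold in mutant (−0.28, adjusted p = 0.00602). Tmem97, a sterol-responsive membrane protein, rose in mutant (0.25, adjusted p = 0.0225), and the lysosomal sterol carrier gene Npc2 fell in WT (−0.19, adjusted p = 0.0217). Cyp27a1, which oxidises cholesterol to a bile acid precursor, fell with TNFa in WT (−0.42, adjusted p = 0.0437). It was higher in mutant than in WT by 1.42-fold without TNFa (7.48 ± 0.08 against 7.99 ± 0.11, adjusted p = 0.0444) and by 1.56-fold with it (7.07 ± 0.37 against 7.71 ± 0.10, adjusted p = 0.00917). Between the genotypes 0 other genes of the list were called.

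Of 24 tested genes of fatty acid and glycerolipid metabolism, 3 rose and 2 fell in WT, and 3 rose and 1 fell in mutant. That is 20.8% called in WT and 16.7% in mutant, where 10.8% and 5.98% of all tested genes were called. Hacd2, a dehydratase of the elongation cycle that Elovl6 opens, rose by 1.62-fold in WT (0.70 log2, SE 0.05, adjusted p = 1.0e-07) and by 1.72-fold in mutant (0.78, adjusted p = 2.5e-08). The triglyceride synthesis genes split. Dgat1 fell by 1.28-fold in WT (adjusted p = 0.00796) and 1.27-fold in mutant (adjusted p = 0.0166), whereas Dgat2 rose by 1.21-fold (adjusted p = 0.0449) and 1.32-fold (adjusted p = 0.00702). Gpam, the first acyltransferase of glycerolipid synthesis, fell in WT (−0.39 log2, adjusted p = 0.00110), the acyl-CoA synthetase gene Acsl5 rose in WT (0.28, adjusted p = 0.0178), and the phosphatidate phosphatase gene Lpin1 rose in mutant (0.50, adjusted p = 0.00773). Mlxipl, the carbohydrate-responsive transcription factor of lipid synthesis, was lower in untreated mutant than in WT by 1.42-fold (7.98 ± 0.16 against 7.47 ± 0.29, adjusted p = 0.0444).

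Fatty acid oxidation is the opposite route. Of its 13 tested genes 5 fell and 0 rose in WT (median −0.20 log2) and 4 fell and 0 rose in mutant (median −0.12), against 5.75% and 2.47% of all tested genes called as lower. Ppargc1a, the coactivator of mitochondrial metabolism, fell by 1.53-fold in WT (−0.61 log2, SE 0.06, adjusted p = 4.4e-06) and 1.28-fold in mutant (−0.36, adjusted p = 0.00150). Cpt1a, which admits fatty acids to mitochondria, fell by 1.31-fold (adjusted p = 4.0e-04) and 1.18-fold (adjusted p = 0.0239). The thiolase gene Acaa2 fell by 1.31-fold (adjusted p = 7.8e-04) and 1.30-fold (adjusted p = 0.00132), and the dehydrogenase gene Acadm by 1.19-fold (adjusted p = 0.0231) and 1.20-fold (adjusted p = 0.0274). Hadha fell in WT (−0.21, adjusted p = 0.0107). Between the genotypes only Ppargc1a passed, higher in mutant with TNFa by 1.23-fold (adjusted p = 0.0118). For the difference of TNFa effects 0 genes of the 3 lists passed in limma, and at an unadjusted p under 0.05 there were 0, 1 and 1.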

How the data were processed

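RNA of 16 colon organoid samples was measured on 1 array each. Per the submitters' processing notes, the authors made the deposited log2 signals with RMA in Affymetrix Expression Console, which corrects background, normalizes quantiles across arrays and summarises probes. Quantile normalization removes shifts shared by all genes. For versions, genome build and scan dates the labels have no entry used here. Of 19825 probe sets, 18851 had a gene symbol, 974 had none and 0 had several, from the platform annotation (all 18851 matched RefSeq by gene ID, 0 symbols changed). A gene was its brightest probe set. Groups were compared in limma 3.58.1 (R 4.3.3), in 1 fit to 16 arrays with moderated tests and Benjamini-Hochberg adjustment over 11766 genes, and adjusted p under 0.05 was called. The functions were tested on simulated data. The members and lists were chosen with earlier results of these data known. Members called in any comparison and the 6 with the largest differences are given array by array (9 in all), and the 4 called genes of smallest adjusted p per other list and comparison are named (with Dgat2 and Acadm, named so for mutant, also given for WT), beside further members and markers given by group. Array number limits the precision.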

Additional observations from a re-analysis of the deposited data

Results flagged for a closer look

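The 4 values of a group were checked for a single array far from the other 3, for 29 members and 3 averages in 4 groups each, 128 in all, and 2 stood out, where chance gives about 1 in 20. Mvd was 10.93 log2 in WT + TNFa 4, against 10.66 to 10.68 in the other arrays of its group. Fdps was 11.64 in mutant + TNFa 4, against 11.75 to 11.76 in the others.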

How the results depend on the processing

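Leaving out each of the 16 arrays in turn gave 0 to 4 called members for TNFa in WT, 1 to 3 for TNFa in mutant, 1 to 3 for genotype without TNFa, 0 to 2 for genotype with TNFa and 0 to 0 for the difference of TNFa effects. Testing all genes without the filter left 1, 1 and 1 called members for TNFa in WT, TNFa in mutant and genotype with TNFa. The filter at the 60th percentile gave 4 for TNFa in WT, 4 for genotype without TNFa and 1 for genotype with TNFa, Me1 no longer being tested. A variance trend with robust fitting gave 4 and 4 for the first 2 of these, array weights 4 for genotype without TNFa, and centring on array medians 3 without and 1 with TNFa. A minimum difference of 0.32 log2 left 0 for TNFa in WT, 1 for TNFa in mutant and 1 for genotype with TNFa, and a fit of only the groups compared left 0 for TNFa in WT and 1 for genotype with TNFa. No label says that the numbers pair samples, and 5 of 24 same-numbered pairs deviated together (r over 0.1, median −0.08). With the number as a replicate block, 1 member was called for TNFa in WT and 1 for genotype with TNFa, as Fads2 and Cyp51 lost their calls (adjusted p = 0.0783 and 0.0749). The cause of these shifts was not tested. Mvd in mutant and Elovl6 without TNFa kept their calls under all 27 alternatives each, and 0 of the 9 member differences followed through the alternatives reversed. Averaging probe sets or testing each on its own could not change a member, as each had 1 probe set, so these alternatives are no check. Over all genes, array weights called 1095 in place of 704 for TNFa in mutant, 443 in place of 292 for genotype without TNFa and 617 in place of 317 with it, while fits of only the groups compared called 720 in place of 1269 for TNFa in WT and 185 in place of 317 for genotype with TNFa. The alternative leaving out arrays for the count of lower sterol enzymes was chosen after seeing the data.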
